A study of Penicillium oxalicum with 18 samples.

Results

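This account is about 178 genes of the filamentous fungus Penicillium oxalicum whose transcripts were abundant in wild type on bran and cellulose, scarce in wild type on glucose, and low on bran and cellulose when the Hap complex had lost a subunit. They were chosen from 9241 rows with PDE locus tags in a table of 9277 genes. For each group the mean FPKM (fragments mapped to a gene, scaled by its length and by the number mapped) was taken over 3 libraries and 1 was added. A gene was kept where wild type on bran and cellulose was at least 8 times wild type on glucose, and where both the hap3 deletion and the hap5 deletion on bran and cellulose were at least 4 times below wild type on that medium. Of 516 genes past the wild type threshold, 196 passed the deletion thresholds too, and 18 of these were left out by tag, as belonging to 2 tag ranges or to 9 single tags set aside from the selection. The choice rests on measured values of 4 of the 6 groups, so the wild type response and the effect of the deletions on bran and cellulose are described here with no test.

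The 6 groups were the hap3 deletion strain (Dhap3), the hap5 deletion strain (Dhap5) and the wild type strain 114-2, each on 1% bran with 1% microcrystalline cellulose and each on 2% glucose, with 3 libraries per group and 18 in all. All groups shared a preculture of 24 h at 30 °C on 2% glucose, after which mycelium was moved to the test medium for 24 h. The labels do not say whether a deletion strain was more than a single isolate or whether the 3 replicates were separate cultures, so the p-values below reflect spread among libraries that may be technical repeats. Bran and cellulose were given together, so their effects cannot be told apart, nor can those of losing glucose.

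The Hap complex is a transcription factor of fungi that binds CCAAT sequences in promoters. It is assembled from Hap2, Hap3 and Hap5, related to the subunits of NF-Y in animals, and in other fungi DNA binding needs all of these subunits together. In budding yeast the complex is known for activating genes of respiration, and in filamentous fungi it is also known for roles in iron and redox control and in the expression of secreted plant cell wall degrading enzymes. Such enzymes are typically switched on by plant polymers and held down by glucose, a control named carbon catabolite repression.

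Totals per library were 966280 to 1202683 FPKM, and read depth is unknown. The files pair the identifiers with no gene names or functions, and 0 of the 178 genes matched the reference gene table, so members are named by tag and no role is given to any of them. The deleted genes are not named either. PDE_02832 lay between 8.93 and 12.2 FPKM in the 6 Dhap3 libraries against 134.4 to 256.4 FPKM in the other libraries, and PDE_01016 between 1.43 and 2.22 FPKM in the 6 Dhap5 libraries against 118.8 to 226.2 FPKM elsewhere. Among PDE tags with at least 2 FPKM in every library of the other strains, these alone were at least 4 times lower in every library of a deletion strain, were found from their values, and are not among the 178.

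On bran and cellulose the 178 genes held a larger share of the FPKM total in wild type than in the deletions, as the rule chose for. They held 0.613%, 0.619% and 0.607% of the FPKM total in Dhap3 and 0.575%, 0.565% and 0.631% in Dhap5, against 10.5%, 11.2% and 11.96% in wild type. In bulk mycelium, less transcript per cell and fewer expressing cells cannot be told apart. On glucose they held 0.271% to 0.302% in Dhap3, 0.291% to 0.340% in Dhap5 and 0.245% to 0.290% in wild type. The median member had a mean of 8.11 FPKM in Dhap3 and 8.62 FPKM in Dhap5 on bran and cellulose, against 181.2 FPKM in wild type there and 2.28 FPKM in wild type on glucose. After addition of 1 to each mean, the median member kept 8.13% of its wild type level in Dhap3 and 7.69% in Dhap5, with ranges of 0.0247% to 24.98% and 0.0210% to 24.1%. Replicate 1 of wild type on bran and cellulose was the lowest of the 3 for 112 of the 178 genes, and for 3474 of the 8681 genes tested.

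**Figure D1:**
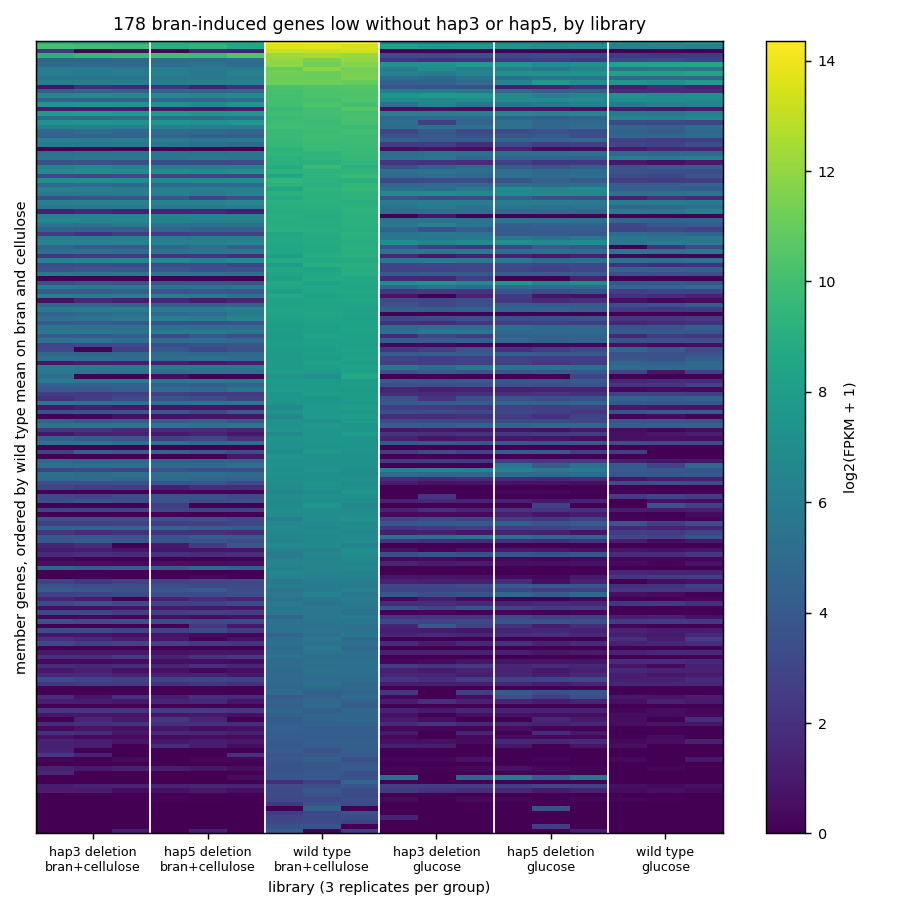
Levels of the 178 genes (rows, ordered by wild type mean on bran and cellulose) in 18 libraries (columns, 3 per group) as log2(FPKM + 1). The wild type block on bran and cellulose stands above the 5 other blocks, where the median member had means between 2.28 and 8.62 FPKM.

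Wild type levels spread widely among the members. Of the 178 genes, 19 had a wild type mean of at least 1000 FPKM on bran and cellulose, 115 at least 100 FPKM and 169 at least 10 FPKM, and the lowest had 7.08 FPKM. In wild type on glucose 30 members were listed at 0 in all libraries. Over the other 148, wild type on bran and cellulose was from 8.01 to 972.9 times wild type on glucose, with a median of 21.97 times, as the ratio of means plus 1. In 175 of the 177 tested members every wild type library on bran and cellulose lay above all 6 deletion libraries, which held for 32.0% of all tested genes. The same number lay above all wild type glucose libraries, against 45.5% of all tested genes. The rule itself chose for both patterns.

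Among the most abundant members, PDE_05118 had 391.3, 356.3 and 348.3 FPKM in Dhap3 and 341.8, 355.5 and 386.5 FPKM in Dhap5 on bran and cellulose, against 17059, 18208 and 21029 FPKM in wild type. Its glucose means were 50.8 ± 6.11 FPKM in Dhap3, 69.8 ± 5.94 FPKM in Dhap5 and 135.3 ± 35.1 FPKM in wild type (SD, n = 3 each). The deletions thus kept a residual level above their own glucose level at this gene, and no library of a deletion overlapped wild type on either medium. PDE_01080 had 1168, 983.3 and 909.6 FPKM in Dhap3 and 541.2, 666.2 and 370.2 FPKM in Dhap5, against 12927, 12711 and 11113 FPKM in wild type on bran and cellulose. PDE_00607 had the highest residual level of the 12 most abundant members as a share of wild type, 13.8% in Dhap3 and 21.8% in Dhap5, with 700.9 ± 107 and 1102 ± 282 FPKM against 5068 ± 595 FPKM in wild type.

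PDE_09315 and PDE_03927 were nearly lost in both deletions. PDE_09315 was listed at 3.82, 0 and 0.37 FPKM in Dhap3 and at 0, 1.74 and 1.37 FPKM in Dhap5 on bran and cellulose, against 9100, 9200 and 10778 FPKM in wild type. It was listed at 0 in all 9 glucose libraries. PDE_03927 had 1.73 ± 0.893 FPKM in Dhap3 and 2.53 ± 1.01 FPKM in Dhap5, against 1330 ± 92.7 FPKM in wild type. The remaining abundant members sat between these patterns: PDE_09417, PDE_01706, PDE_04101, PDE_08396, PDE_05299, PDE_06389 and PDE_07585 had wild type means from 1250 to 3722 FPKM on bran and cellulose and deletion means from 21.3 to 70.9 FPKM.

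**Figure D2:**
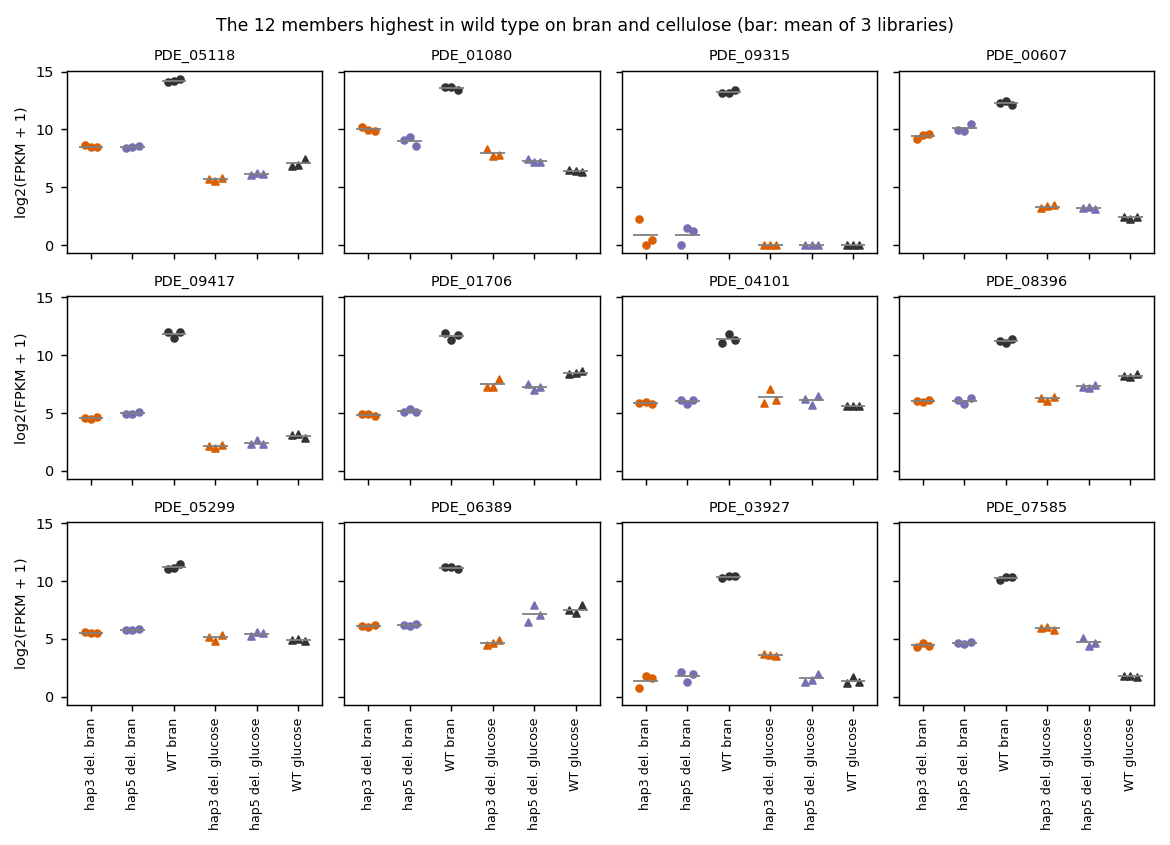
The 12 members with the highest wild type mean on bran and cellulose, each point a library as log2(FPKM + 1) and each bar the mean of 3 libraries on that scale, with circles for bran and cellulose and triangles for glucose. In every panel the 3 wild type circles lie above all other points, from 17059 to 21029 FPKM at PDE_05118 and from 1107 to 1339 FPKM at PDE_07585.

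Some members were detected in wild type on bran and cellulose alone. Of the 178, 10 were listed at 0 in all 15 other libraries, and 17 stayed at or under 1 FPKM there. PDE_07969 was the most abundant of the 10, with 152.3, 174.5 and 173.1 FPKM in wild type on bran and cellulose. A value of 0 in a table without read counts can be a failed estimate, and the ratio the rule took against a group at 0 rests on the constant added. The selection was weakest at low levels. On bran and cellulose wild type had 0, 23.4 and 0 FPKM of PDE_01487, 10.96, 10.6 and 0 FPKM of PDE_07023, and 17.0, 0 and 4.26 FPKM of PDE_02361, so each entered through part of its libraries. These were picked out after their values were seen.

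At the edge of the wild type threshold, PDE_08396 at 8.01 times glucose was just inside and PDE_00303 at 7.95 times just outside. PDE_02361, just inside with a wild type mean of 7.08 FPKM on bran and cellulose, and PDE_06434, just outside with 6.97 FPKM, were listed at 0 in wild type on glucose, so they have no fold. For Dhap3, PDE_00704 and PDE_08932 were just inside, with wild type 4.003 and 4.05 times the deletion, and PDE_08933 and PDE_00094 just outside at 3.87 times each. For Dhap5, PDE_01622 and PDE_09261 were just inside at 4.15 times each, and PDE_09932 at 3.95 and PDE_00753 at 3.49 times just outside.

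On glucose, where the deletion libraries took no part in the choice, more members were higher than lower in each deletion relative to wild type. Testing by limma covered genes that reached 1 FPKM in 3 or more libraries, on log2(FPKM + 1) over the whole table. A call needed an adjusted p under 0.05 and a log2 change of 1 or more in size. Of the 178 members 177 were tested, all but PDE_01487, and 24 of them passed the filter only through wild type on bran and cellulose. In Dhap3 46 members were higher (background 15.3% of 8681 tested genes) and 18 lower (background 8.74%). In Dhap5 50 were higher (background 17.6%) and 16 lower (background 7.0%). The median log2 change of the members was 0.30 in Dhap3 and 0.36 in Dhap5, beside 0.14 and 0.24 over all tested genes. The wild type glucose libraries were used by the rule on their low side, which favours higher calls, and both comparisons share them. Median-of-ratios scaling gave 39 higher and 24 lower members in Dhap3 and 37 and 21 in Dhap5. Quantile normalization gave 31 higher and 26 lower in Dhap3 and 26 and 28 in Dhap5, so the excess of higher members in Dhap5 was gone under that scaling.

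**Figure D3:**
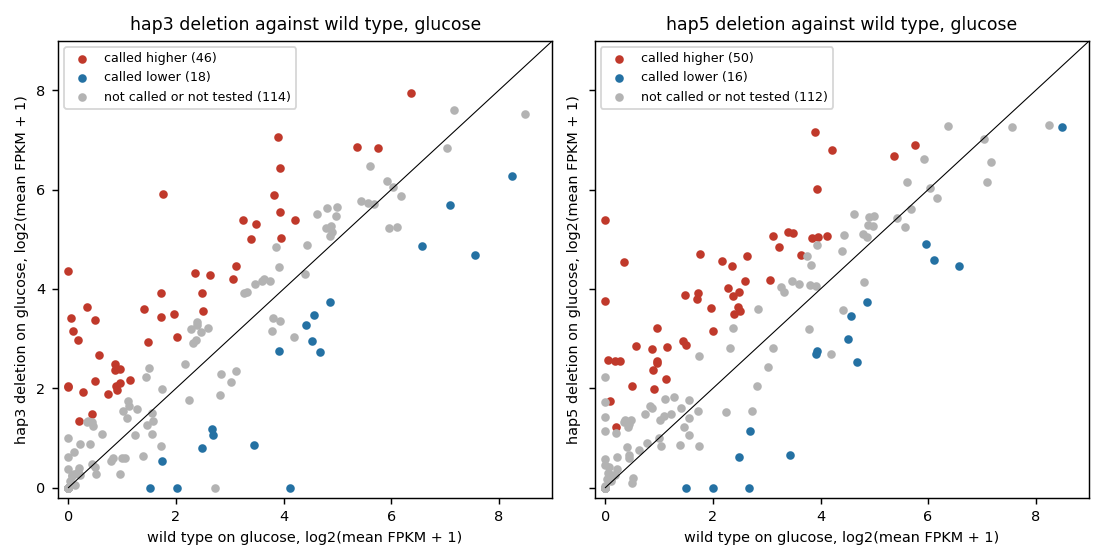
Mean levels of the 178 genes on glucose as log2(mean FPKM + 1), in Dhap3 (left) and Dhap5 (right) on the vertical axis and wild type on the horizontal axis, with the line of equal levels. Red points are the 46 and 50 members called higher, blue points the 18 and 16 called lower.

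Called higher in both deletions, which share the wild type libraries, were 37 members (background 13.0%). PDE_07585 had 61.8, 62.6 and 52.5 FPKM in Dhap3 and 31.8, 20.3 and 23.7 FPKM in Dhap5 on glucose, against 2.52, 2.39 and 2.25 FPKM in wild type. The log2 change against wild type was 4.14 for Dhap3 (SE 0.14, adjusted p = 3.26e-12) and 2.93 for Dhap5 (SE 0.14, adjusted p = 8.56e-11). At this gene, the twelfth most abundant of the set in wild type on bran and cellulose, no deletion library on glucose overlapped wild type. PDE_06813 had 130.6, 153.4 and 116.1 FPKM in Dhap3 and 201.5, 93.2 and 134.5 FPKM in Dhap5, against 13.1, 14.8 and 13.6 FPKM in wild type, with log2 changes of 3.17 (SE 0.21, adjusted p = 3.82e-09) and 3.21 (SE 0.21, adjusted p = 3.05e-09). PDE_03468 had 11.4 ± 1.91 FPKM in Dhap3 and 22.4 ± 5.4 FPKM in Dhap5, against 0.52, 0.27 and 0.01 FPKM in wild type, and PDE_01269 had 85.9 ± 6.35 and 63.9 ± 16.3 FPKM against 14.3 ± 2.29 FPKM. These genes were therefore expressed on glucose in the deletions at levels between those of wild type on glucose and wild type on bran and cellulose, whose means were 1250, 363.9, 61.1 and 154.8 FPKM in the order named. PDE_01818 went past its wild type level on bran and cellulose in part of the libraries, with 35.4, 0 and 23.6 FPKM in Dhap3 and 60.9, 17.0 and 44.7 FPKM in Dhap5 on glucose, 0 in wild type on glucose, and 12.7 ± 1.86 FPKM in wild type on bran and cellulose.

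Lower in both deletions on glucose were 12 members, a share near the background of 6.2%. PDE_01852 had 26.4, 29.2 and 29.3 FPKM in Dhap3 and 23.4, 18.2 and 21.8 FPKM in Dhap5, against 88.5, 85.9 and 109.1 FPKM in wild type. The log2 change was -1.70 for Dhap3 (SE 0.11, adjusted p = 5.75e-09) and -2.11 for Dhap5 (SE 0.11, adjusted p = 4.4e-10). PDE_09101 had 5.66 ± 0.531 and 4.81 ± 0.945 FPKM in the Dhap3 and Dhap5 strains against 24.6 ± 3.42 FPKM in wild type, and PDE_04151 had 6.78 ± 0.349 and 6.96 ± 0.775 FPKM against 21.9 ± 1.12 FPKM. PDE_01852, PDE_09101 and PDE_04151 were thus lower without either subunit on both media. The close tags PDE_09098 and PDE_09099 moved with PDE_09101: PDE_09098 was listed at 0 in all 12 deletion libraries and at 1.84 ± 0.0551 FPKM on glucose in wild type, and PDE_09099 had 0.73 ± 0.115 and 0.53 ± 0.392 FPKM in the Dhap3 and Dhap5 strains against 4.58 ± 0.598 FPKM. PDE_09098 and PDE_09099 were named after their values were seen. PDE_05049 was the 1 member called in opposite directions, listed at 0 in the 3 Dhap3 libraries and at 42.9, 15.6 and 38.4 FPKM in Dhap5, against 15.4, 6.43 and 27.1 FPKM in wild type, where Dhap5 and wild type libraries overlapped. Neither deletion was called against wild type on glucose for 97 members. Shares over all genes were not taken for this count or for opposite calls, so both only describe the members.

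Within each deletion strain, the median member differed little between bran and cellulose and glucose, while single members ranged widely in both directions. The rule set an upper limit on the bran and cellulose level of the deletions and did not use their glucose level. The median difference of mean log2(FPKM + 1) was 0.39 in Dhap3 and 0.31 in Dhap5, beside 4.47 in wild type, which is given as a description. In Dhap3 60 members were higher on bran and cellulose (background 18.6%) and 24 lower (background 13.6%). In Dhap5 50 were higher (background 13.8%) and 24 lower (background 11.1%). Called higher in both deletions were 42 members (background 12.5%) and lower in both 17 (background 8.92%). Another 2 were called in opposite directions and 80 in neither, counts for which no share over all genes was taken and which only describe the members. Shares of lower members were near the background in each deletion and in both together.

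**Figure D4:**
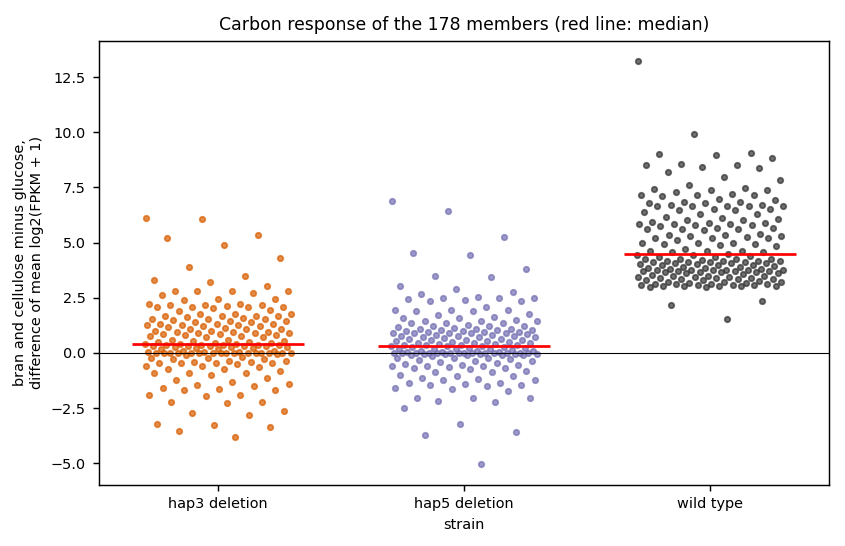
Difference of mean log2(FPKM + 1) between bran and cellulose and glucose for each of the 178 genes in Dhap3, Dhap5 and wild type, with the median as a red line (0.39, 0.31 and 4.47). Wild type values were chosen to be high, while the deletion values run from -3.81 to 6.12 and from -5.05 to 6.87.

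Among the members higher in both deletions, the change was largest at PDE_00607, PDE_05527, PDE_05650 and PDE_06576. PDE_00607 had 700.9 ± 107 FPKM on bran and cellulose and 9.08 ± 1.12 FPKM on glucose in Dhap3, 6.12 apart on the log2 scale (SE 0.16, adjusted p = 4.86e-14), and 1102 ± 282 and 8.24 ± 0.451 FPKM in Dhap5, 6.87 apart (SE 0.16, adjusted p = 1.53e-14). PDE_05527 had 75.2, 86.2 and 86.9 FPKM on bran and cellulose against 0, 0.89 and 0 FPKM on glucose in Dhap3, and 84.3, 86.6 and 85.8 FPKM against 0 in all libraries in Dhap5. PDE_06576 was listed at 0 in all 9 glucose libraries and lay between 23.0 and 53.9 FPKM in the 6 deletion libraries on bran and cellulose, against 313.5 to 343.9 FPKM in wild type. These genes were higher on bran and cellulose than on glucose without either subunit, while their level below wild type there was set by the rule. At the 42 members called higher in both deletions, a difference between the media thus remained in each deletion. Both deletions on bran and cellulose were at least 2 times wild type on glucose at 72 members, and both were below wild type on glucose at 37, after addition of 1 to the means. The rule used these same means and no share over all genes was taken, so both counts only describe the members.

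The 17 members lower on bran and cellulose than on glucose in both deletions were, by the rule, higher there in wild type. PDE_09380 had 1.37, 2.14 and 1.49 FPKM on bran and cellulose against 32.6, 38.9 and 37.4 FPKM on glucose in Dhap3, a change of -3.81 on the log2 scale (SE 0.15, adjusted p = 9.78e-12). In Dhap5 it had 1.61, 1.75 and 1.1 FPKM against 29.0, 29.8 and 27.8 FPKM, which gave a log2 change of -3.60 (SE 0.15, adjusted p = 2.41e-11), while wild type had 526.1 ± 74.6 FPKM on bran and cellulose and 60.9 ± 12.8 FPKM on glucose. Libraries on the media did not overlap in any strain. PDE_01706 had 28.0 ± 2.03 FPKM on bran and cellulose and 183.1 ± 48.9 FPKM on glucose in Dhap3, and 35.7 ± 4.1 and 153.1 ± 29.6 FPKM in Dhap5, while wild type had 3271 ± 654 FPKM on bran and cellulose and 357.4 ± 34.9 FPKM on glucose. PDE_06813 had 11.9 ± 1.7 FPKM on bran and cellulose and 133.4 ± 18.8 FPKM on glucose in Dhap3, and 13.7 ± 0.405 and 143.1 ± 54.7 FPKM in Dhap5. Of the 17 genes, 11 were also higher than wild type on glucose in both deletions, among them PDE_06813, PDE_01269 and PDE_01818, and 6 were called higher than wild type on glucose in neither, among them PDE_09380, PDE_01706 and PDE_09101. Both calls use the same glucose libraries of the deletions, so a high level there favours both together. The share of all tested genes with both calls was not taken, so the overlap is only a description.

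On bran and cellulose the rule had capped both deletions, so the Dhap5 and Dhap3 values were chosen to be low together and their comparison is read only gene by gene. Their means plus 1 lay within 1.5 times of each other at 161 of the 178 members, and at 94.3% of all tested genes. In the fit over all genes 1 member was higher in Dhap5 (background 0.276%) and 2 were lower (background 0.196%), and 29 of the 177 had an unadjusted p under 0.05 (background 13.3%). PDE_02102 had 31.1, 28.2 and 45.5 FPKM in Dhap5 and 15.3, 15.3 and 19.4 FPKM in Dhap3, a log2 difference of 1.00 (SE 0.15, adjusted p = 0.00377). PDE_01078 had 6.16, 7.41 and 3.08 FPKM in Dhap5 and 20.1, 15.4 and 12.4 FPKM in Dhap3, a log2 difference of -1.41 (SE 0.23, adjusted p = 0.00591). The third, PDE_07956, had 2.18 ± 0.649 FPKM in Dhap5 and 5.71 ± 1.25 FPKM in Dhap3, and was named as it completes this count. A fit on these 6 libraries alone called 0 members in either direction, and the call of PDE_02102 was also lost without replicate 1 or 2 of Dhap3 or replicate 3 of Dhap5.

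On glucose the deletions differed at more members, with 9 higher in Dhap5 than in Dhap3 (background 2.97%) and 7 lower (background 1.04%). Median-of-ratios scaling gave 7 and 7 and quantile normalization 7 and 9. PDE_06389 had 89.3, 235.1 and 135.9 FPKM in Dhap5 and 21.4, 23.6 and 29.0 FPKM in Dhap3, a log2 difference of 2.49 (SE 0.25, adjusted p = 1.29e-05), beside 187.0 ± 46.5 FPKM in wild type. PDE_05239 had 23.1, 20.6 and 23.9 FPKM in Dhap5 and 2.44, 7.14 and 4.3 FPKM in Dhap3, a log2 difference of 2.15 (SE 0.28, adjusted p = 0.000119), beside 3.49 ± 1.34 FPKM in wild type. So Dhap3 stood apart from wild type at PDE_06389 and Dhap5 at PDE_05239. PDE_03927 had 1.43, 1.72 and 2.97 FPKM in Dhap5 and 11.7, 11.5 and 10.2 FPKM in Dhap3, a log2 difference of -2.03 (SE 0.27, adjusted p = 0.000119), beside 1.64 ± 0.536 FPKM in wild type. PDE_00485 had 16.6 ± 0.538 FPKM in Dhap5 and 48.4 ± 5.51 FPKM in Dhap3, on either side of 26.9 ± 3.73 FPKM in wild type, and PDE_00350 had 21.4 ± 2.31 and 58.7 ± 15.5 FPKM with 13.1 ± 4.42 FPKM in wild type.

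The change between media, taken as Dhap5 minus Dhap3 through the interaction term, differed with a positive sign at 9 members (background 1.5%) and with a negative sign at 12 (background 3.2%). The sign is not the size of the response, as members that were lower on bran and cellulose in both deletions and less so in Dhap5 have a positive one. The change was larger in absolute size in Dhap5 at 1 of the 9 and at 3 of the 12. Median-of-ratios scaling gave 11 and 10, and quantile normalization 12 and 7.

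Members often carried neighbouring tag numbers, which the thresholds of the rule did not use. Tags did enter the choice through the 18 genes past all thresholds that were left out by tag, some of them as tag ranges. The shares of members are therefore for the 178 genes that remained, and shares with the left out genes kept were not taken. A member with the next or previous tag was present for 40 of the 178 genes (22.5%), whereas 264 of the 9063 other PDE genes (2.91%) had a member next to them. Within 5 tags the counts were 68 members (38.2%) and 1224 other genes (13.5%). The 301 other genes induced at least 8 times in wild type, which missed a deletion threshold, lay next to another of their own kind in 25.2% of cases and within 5 tags in 37.5%, shares close to those of the members among themselves. They lay next to a member in 6.31%. The files give no coordinates, so tag order is all that is described. Of 16 runs of consecutive member tags, 13 held 2 genes, 2 held 3 and 1 held 8.

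The run of 8 went from PDE_04022 to PDE_04029, inside a stretch from PDE_04008 to PDE_04029 where 14 of 19 listed genes were members. All 14 were chosen for a wild type level high on bran and cellulose and low on glucose, which favours higher calls on glucose. On glucose 11 of them were higher in Dhap3 (background 15.3%) and 12 in Dhap5 (background 17.6%), with median log2 changes of 1.17 and 1.68. Of these, 11 were higher in both (background 13.0%). Lower calls numbered 0 in either deletion (background 8.74% in Dhap3 and 7.0% in Dhap5). PDE_04026 had 29.7, 36.0 and 28.4 FPKM in Dhap3 and 37.1, 29.8 and 36.1 FPKM in Dhap5 on glucose, against 8.7, 7.12 and 12.6 FPKM in wild type, with log2 changes of 1.66 (SE 0.23, adjusted p = 1.46e-05) and 1.78 (SE 0.23, adjusted p = 6.55e-06). On bran and cellulose it had 7.99, 7.01 and 7.91 FPKM in Dhap3 and 7.16, 6.58 and 6.7 FPKM in Dhap5, against 379.4, 685.8 and 805.6 FPKM in wild type. The deletions and wild type thus changed places between the media without overlap. PDE_04024, PDE_04025, PDE_04027 and PDE_04028 showed the same change of places, with wild type above the deletions on bran and cellulose and below them on glucose. With PDE_04026 they were the 5 members of the stretch called lower on bran and cellulose than on glucose in both deletions (background 8.92%). PDE_04028 had 5.19, 4.61 and 4.02 FPKM in Dhap3 and 6.74, 5.2 and 5.97 FPKM in Dhap5 on glucose, against 0.99, 0.74 and 0.73 FPKM in wild type.

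PDE_04022 and PDE_04023 differed between the deletions on glucose. PDE_04022 had 9.59, 4.96 and 10.2 FPKM in Dhap5 and 0.23, 0 and 0.39 FPKM in Dhap3, beside 0.93, 0.71 and 1.21 FPKM in wild type. PDE_04023 had 130.01, 82.5 and 116.5 FPKM in Dhap5 and 39.9, 34.98 and 48.4 FPKM in Dhap3, beside 17.2, 18.2 and 16.9 FPKM in wild type. Replicate 1 of wild type on bran and cellulose was the lowest of 3 at all 8 genes of the run, as at PDE_04024 with 113.6 FPKM against 220.2 and 256.2 FPKM, so these genes share a spread between libraries and are not independent observations. Under quantile normalization the glucose calls of PDE_04023, PDE_04025 and PDE_04029 in Dhap3 and of PDE_04025, PDE_04027 and PDE_04029 in Dhap5 were lost, with log2 changes from 0.51 to 0.98 that kept their sign, and PDE_04022 was lower in Dhap3 with a log2 change of -1.34. Of the 5 genes of the stretch that are no members, PDE_04021 had 1.85 ± 0.294 FPKM in Dhap3 and 2.24 ± 0.0666 FPKM in Dhap5 on bran and cellulose against 462.0 ± 46.3 FPKM in wild type, and missed the wild type threshold because wild type on glucose had 196.6 ± 36.9 FPKM.

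**Figure D5:**
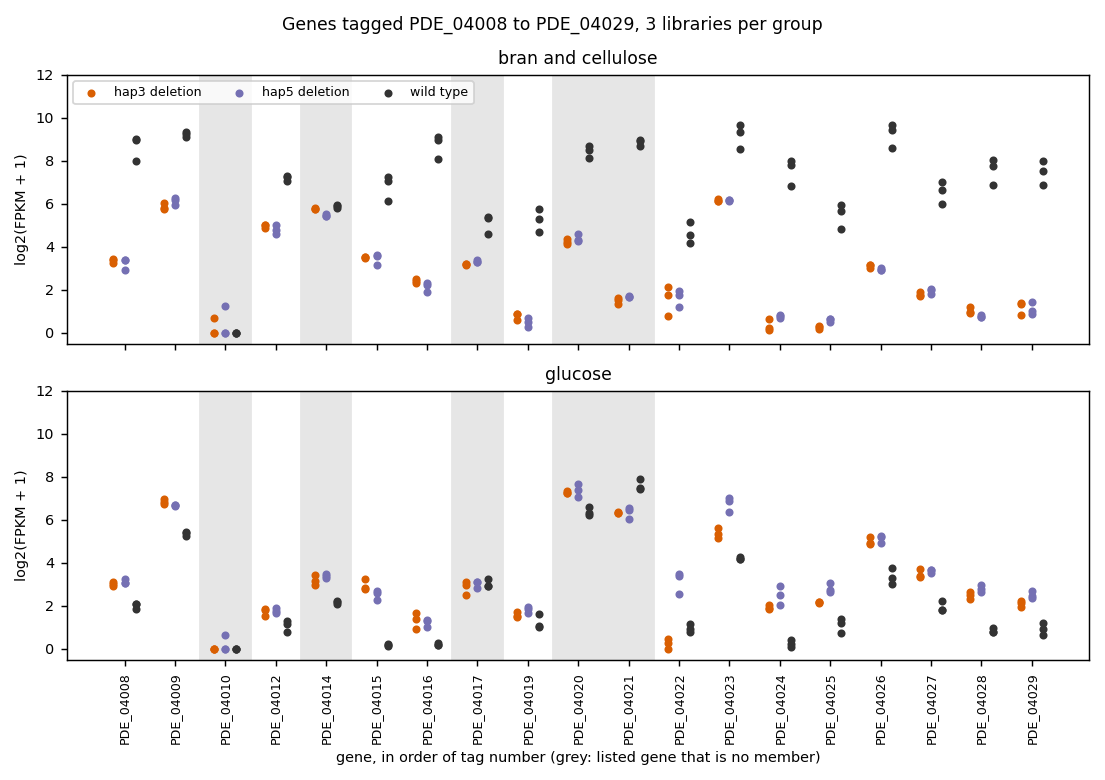
Levels of the 19 listed genes from PDE_04008 to PDE_04029 as log2(FPKM + 1), each point a library, on bran and cellulose (top) and on glucose (bottom), with genes that are no members on grey. At PDE_04026 the wild type points run from 379.4 to 805.6 FPKM above the deletions on bran and cellulose, and from 7.12 to 12.6 FPKM below them on glucose.

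A second stretch, from PDE_03924 to PDE_03930, held 5 members among 7 listed genes, including the run PDE_03926, PDE_03927 and PDE_03928. All 5 had means of at most 2.53 FPKM in either deletion on bran and cellulose, against 49.4 to 1330 FPKM in wild type. On glucose 3 of them were higher in Dhap3 (background 15.3%) and 2 in Dhap5 (background 17.6%). PDE_03928 had 9.24, 8.34 and 10.4 FPKM in Dhap3 and 4.09, 2.23 and 3.02 FPKM in Dhap5, against 0.58, 0.26 and 0.39 FPKM in wild type, with log2 changes of 2.87 (SE 0.23, adjusted p = 3.42e-08) and 1.53 (SE 0.23, adjusted p = 3.07e-05). In the third run, PDE_09794 had 1.13 ± 0.0656 FPKM in Dhap3 and 1.02 ± 0.0907 FPKM in Dhap5 on bran and cellulose against 1111 ± 313 FPKM in wild type, and PDE_09793 had at most 0.13 FPKM in any deletion library there against 76.2, 80.8 and 115.6 FPKM. PDE_09792 next to them kept 65.7 ± 3.04 and 61.1 ± 4.31 FPKM against 477.4 ± 74.9 FPKM, so genes with adjoining tags differed in how much transcript remained. None of PDE_09792, PDE_09793 and PDE_09794 was called on glucose in either deletion with the deposited scaling, and PDE_09794 was lower in Dhap5 after quantile normalization.

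The members are set beside the 301 other wild type induced genes, 300 of them tested, with no test of the difference. On glucose 26.0% of the tested members were higher than wild type in Dhap3 and 28.2% in Dhap5, against 57.0% and 69.7% of the other genes. Lower calls on glucose were 10.2% and 9.04% for the members, against 2.67% and 1.67% for the other genes. The sets were split by the level of the deletions on bran and cellulose, which may go with their level on glucose. Whether it does was not tested. The members here include 24 that passed the filter only through wild type on bran and cellulose, so nothing is concluded from the glucose shares. Within the deletions 33.9% of the members were higher on bran and cellulose than on glucose in Dhap3 and 28.2% in Dhap5, against 83.0% and 78.3% of the other genes. The rule capped the bran and cellulose level of the members in both deletions, and the other genes are those that missed this cap. A lower share of such calls among the members was therefore favoured by the selection, and nothing is concluded from it.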

How the data were processed

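Transcripts were measured in 18 libraries. The authors deposited 1 table of FPKM values, per the file headers, with no read counts. Per the labels' protocols the libraries were tag libraries cut with NlaIII and MmeI, whereas FPKM divides by gene length. This alters levels of genes against each other and not the ratio of a gene between libraries before a constant is added. Sources used here do not give the aligner, quantifier, genome build, annotation or strand handling, so overlapping genes and near-identical copies are uncertain. Each column names its strain, medium and replicate. The medium code other than that of glucose differs from the titles and was matched by elimination, and 0 columns were left unmapped. Of 9277 identifiers, 0 matched the 9964 genes of the reference table, so the planned product lists were not formed and no sequences are shown.

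Depth is unknown: ratios of low genes between libraries gathered in a window of 0.02 log2 units for 2.68% to 11.0% of genes, and whole reads would give nearly all, so counting intervals are left out. No libraries were identical.

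The 8681 genes reaching 1 FPKM in 3 or more libraries were fitted on log2(FPKM + 1) with limma 3.58.1 in R 4.3.3, as 6 group means over all 18 libraries with an intensity trend. Benjamini-Hochberg adjustment ran over all tested genes, separately for each of 7 comparisons. The fit was tested on simulated data, with changes placed only in genes of moderate to high level in wild type on glucose. Most members were below that level, so the simulation does not speak for them. Members were named by rule: the 12 highest in wild type on bran and cellulose, up to 4 called per comparison and direction with a group mean of 10 FPKM or more and no overlap of replicates, runs of 3 or more tags, and the edges of the thresholds. Other members named to show a pattern were chosen after their values were seen. Members and lists were chosen with earlier results of these data known. The alternatives changed the pseudocount (0.1), the filter (none, or 5 FPKM), the scaling (median of ratios, or quantile) and the model (a replicate block, or the compared groups only). Further ones were other settings of the selection and leaving out each library. Log2 changes on this scale understate those of low genes.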

Additional observations from a re-analysis of the deposited data

Results flagged for a closer look

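The response to bran and cellulose against glucose differed between the hap5 deletion (Dhap5) and the hap3 deletion (Dhap3) at 21 members by the interaction term of limma, 9 with a positive and 12 with a negative difference, Dhap5 minus Dhap3. At 15 of the 21 the deletions were called different on glucose, and at 2 on bran and cellulose. The term is the difference of the deletions on bran and cellulose minus that on glucose, so it uses the same libraries. The rule capped both deletions on bran and cellulose, which favours terms that restate the glucose difference. No share over all genes was taken, so both counts only describe the members.

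The positive differences, in log2 units, were 2.41 at PDE_03927, 1.80 at PDE_00485, 1.64 at PDE_03928, 1.51 at PDE_08497, 1.39 at PDE_07585, 1.22 at PDE_00350, 1.11 at PDE_03930, 1.07 at PDE_02115 and 1.05 at PDE_01269. At 6 of these 9 the fitted change between media was negative in both deletions and less so in Dhap5, and at 3 it was negative in Dhap3 and positive in Dhap5. PDE_03927 was not called between the media in Dhap5, at 2.53 ± 1.01 FPKM on bran and cellulose and 2.04 ± 0.818 FPKM on glucose, and lower on bran and cellulose in Dhap3, at 1.73 ± 0.893 FPKM against 11.1 ± 0.775 FPKM (adjusted p of the interaction 0.001).

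The negative differences were -5.09 at PDE_05049, -2.80 at PDE_04022, -2.79 at PDE_05239, -2.41 at PDE_06389, -2.09 at PDE_08659, -1.70 at PDE_02215, -1.39 at PDE_04023, -1.22 at PDE_01370, -1.12 at PDE_01078, -1.11 at PDE_07956, -1.10 at PDE_02736 and -1.01 at PDE_03020. At 6 of these 12 the change was positive in both deletions and less so in Dhap5, at 5 it was positive in Dhap3 and negative in Dhap5, and at PDE_08659 it was negative in both and more so in Dhap5. PDE_05239 had opposite calls, with 10.8 ± 3.34 FPKM on bran and cellulose and 22.5 ± 1.77 FPKM on glucose in Dhap5, and 16.9 ± 1.29 and 4.63 ± 2.37 FPKM in Dhap3 (adjusted p of the interaction 0.000556). PDE_04022 also had opposite calls. PDE_05049, PDE_08659, PDE_08497 and PDE_07956 were listed at 0 in all libraries of at least 1 of the groups entering the term, so their size depends on the constant added. The call of PDE_08659 was lost with a pseudocount of 0.1, with quantile normalization, with the compared groups only and in 9 fits that left out a library.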

How the results depend on the processing

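Stability of single genes was scored only for members named for a comparison as its largest calls without overlap of replicates. Members of runs of 3 or more tags were added for comparisons with wild type on glucose and between media. No call among these turned its direction under any alternative. Of 1426 such values, 1386 kept their side of the threshold, 28 lost the call and 12 gained it. Large calls were picked for most of them, which favours calls that hold, so these counts do not speak for all members. The members of the rule numbered 228 with a constant of 0.1, 96 with 10, 113 with a wild type threshold of 16 times, 121 with a deletion threshold of 8 times, 129 with every library past the thresholds, 169 with median-of-ratios scaling and 159 with quantile normalization, 153 of these among the 178. Their number ran from 173 to 185 when 1 library was left out. As depth is unknown, counting error at low levels could not be set. Quantile normalization gave 26 higher and 28 lower members in Dhap5 on glucose, and 7 negative differences of response, Dhap5 minus Dhap3. It moved the median log2 change of all genes between media in Dhap3 to -0.13, in place of 0.046. The compared groups alone called 0 higher and 0 lower members between the deletions on bran and cellulose. Without 1 library these were 0 to 2 and 1 to 3.

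Other counts without 1 library ran from 42 to 47 higher and 17 to 20 lower in Dhap3 and from 47 to 54 and 14 to 18 in Dhap5 against wild type on glucose, from 8 to 12 and 6 to 8 between the deletions on glucose, from 58 to 64 and 24 to 26 between media in Dhap3 and from 46 to 54 and 24 to 24 in Dhap5, and from 7 to 10 and 8 to 15 for the difference of response. Median-of-ratios scaling moved the median of all genes to 0.0082 in Dhap3 and 0.016 in Dhap5 on glucose and to -0.0057 for the difference of response, and quantile normalization to -0.0023, -0.023 and 0.015, in place of 0.14, 0.24 and -0.12. PDE_04025 lost its call in Dhap3 on glucose after median-of-ratios scaling (0.97) and without wild type replicate 3 (0.85). Labels share replicate numbers, and deviations of same-numbered libraries correlated from -0.12 to 0.20. The main fit did not pair libraries by number. Such weak correlations cannot exclude a shared culture or batch, and wild type on bran and cellulose took no part in this check. The replicate block gave 59 higher members between media in Dhap3 in place of 60, and moved no other count.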
